A study of Caenorhabditis elegans with 2 samples.

Results

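The genes described here are the cytosolic ribosomal protein genes of Caenorhabditis elegans, taken as all protein-coding genes whose symbol is rpl- or rps- followed by a number in the WBcel235 annotation. There were 78 such genes among 19973 protein-coding genes, 47 of the large subunit (rpl-) and 31 of the small subunit (rps-). The rule itself uses names and no measured value. No symbol began with rpla-, and the P-stalk genes carry the names rla-0, rla-1 and rla-2 and so fall outside the rule. Chromatin immunoprecipitation followed by sequencing was carried out on whole larvae of the first stage, L1, with sex given as mixed and age as unknown. All animals were of strain OP355, genotype unc-119(tm4063) III; wgIs355, which carries an integrated transgene in an unc-119 mutant, and the labels do not say what promoter drives it or whether the animals were pooled from several cultures. There were 2 biological replicates and no second genotype, treatment or stage, so every comparison is between the replicates or between these genes and all protein-coding genes. The labels disagree on the tagged gene, since the antibody and strain source fields give mdl-1 and the free description gives eGFP-ZK337.2.

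Ribosomal proteins assemble with ribosomal RNA into a small subunit, which reads the messenger RNA, and a large subunit, which joins the amino acids. Their genes are among the most strongly transcribed in a growing animal, and their output is set together with that of ribosomal RNA. In mammals and in Drosophila the Myc family of basic helix-loop-helix leucine zipper proteins binds at ribosomal protein and ribosome biogenesis genes. MDL-1 is the worm relative of the mammalian MAD proteins, which share their MAX partner and their E-box target sequence with Myc.

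The authors' lists give regions, each with a summit and a signal, the authors' own value per region. One thresholded list of 259 regions stands beside relaxed lists of 30000 regions each for the pooled data, replicate 1 and replicate 2. The authors label the relaxed lists as peaks and background. A region in a relaxed list alone, above all one of weak rank, therefore need not be a site of enrichment. The thresholded regions were the 259 strongest of the pooled list, down to a signal of 49.8. A region was assigned to a gene when its summit lay in the promoter window, which began 1000 bp before the gene's 5′ end and ended 500 bp past it, and where there were several the one of highest signal is given. Rank 1 is the highest signal of a list. Signals are compared only within a list, because the sources used here do not give their scaling and the pooled, replicate 1 and replicate 2 lists had median signals of 20.3, 12.9 and 11.0. Library depth is unknown, as the lists carry no read counts. No test was made over genes, which are not replicates of a condition.

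Of the 78 ribosomal protein genes, 7 (8.97%) had a thresholded region in the promoter window, against 0.721% of all protein-coding genes. Of the large subunit these were rpl-15, rpl-3, rpl-14, rpl-35 and rpl-12, and of the small subunit rps-1 and rps-12. The summit sequences below are shown because they carry what these regions share: for rpl-15, rpl-3, rps-1, rps-12 and rpl-35, and then for rpl-9, which lay just under the threshold, and rpl-20, which was strong in replicate 1 and weak in replicate 2. Each covers 50 bp either side of the pooled summit, 101 bases in all, read from the WBcel235 reference (ce11) and written 5′ to 3′ on the strand of the gene. Capitals mark 6 sequences of 6 bases that each occurred, on either strand, in at least 4 of the 7 thresholded windows and in under 5% of all summits in promoter windows. One is ACTTGC, which reads GCAAGT on the opposite strand. Another is CCGTAG, which there reads CTACGG. A further one is CGCTCC, the opposite of GGAGCG. Next is ACTCCG, seen as CGGAGT from the opposite strand. With them goes ACCGTA, whose opposite strand has TACGGT. The last is AGTGTA, written TACACT on the opposite strand. CCGTAG and ACCGTA overlap each other, as ACTCCG and AGTGTA can. The positions are chrIV:654878-654978 (minus strand) for rpl-15, chrIII:3867535-3867635 (plus) for rpl-3, chrIII:4475627-4475727 (plus) for rps-1, chrIII:5679078-5679178 (plus) for rps-12, chrIII:7854625-7854725 (plus) for rpl-35, chrIII:7573017-7573117 (minus) for rpl-9 and chrIV:4750015-4750115 (minus) for rpl-20.
rpl-15: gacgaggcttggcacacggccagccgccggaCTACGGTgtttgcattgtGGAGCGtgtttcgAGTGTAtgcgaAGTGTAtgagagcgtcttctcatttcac
rpl-3: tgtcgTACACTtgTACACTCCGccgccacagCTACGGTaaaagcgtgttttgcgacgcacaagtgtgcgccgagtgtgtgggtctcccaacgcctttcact
rps-1: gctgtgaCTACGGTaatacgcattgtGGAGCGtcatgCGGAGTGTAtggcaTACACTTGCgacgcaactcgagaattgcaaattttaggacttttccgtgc
rps-12: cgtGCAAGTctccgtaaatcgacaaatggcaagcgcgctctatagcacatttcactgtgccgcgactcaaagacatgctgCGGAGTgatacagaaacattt
rpl-35: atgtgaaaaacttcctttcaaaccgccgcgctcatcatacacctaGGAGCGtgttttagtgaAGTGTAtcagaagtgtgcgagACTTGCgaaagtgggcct
rpl-9: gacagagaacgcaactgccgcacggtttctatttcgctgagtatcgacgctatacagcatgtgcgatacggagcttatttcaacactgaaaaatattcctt
rpl-20: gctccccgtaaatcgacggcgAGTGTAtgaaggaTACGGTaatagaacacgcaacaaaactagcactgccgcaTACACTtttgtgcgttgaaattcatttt

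The rps-1 window held all 6 of the capitalised sequences, the rpl-15 and rpl-3 windows 4 each, the rpl-35 window 3, and the rps-12 and rpl-20 windows 2 each. The rpl-9 window held 0. In rpl-15 and rps-1 the run CTACGGT was followed, in the direction of the gene, by GGAGCG and then by AGTGTA. In rpl-35 GGAGCG was again followed by AGTGTA. In rpl-3 TACACT, the reverse complement of AGTGTA, came before CTACGGT.

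These 6 sequences were picked from the windows in which they are counted, so their number among the thresholded genes is a description. ACTTGC lay in 5 of the 7 thresholded windows and in 1 of the windows of the 43 other ribosomal protein genes with a region. It lay in 5.84% of the summits of the 137 other genes with a thresholded region and in 3.76% of all 8533 summits. The other 5 sequences lay in 4 of the 7 windows each. Of the 43 windows of other ribosomal protein genes, ACCGTA lay in 6, ACTCCG in 4, and the remaining 3 sequences in 1 each. The other thresholded genes also held some of them more often than all summits did. CGCTCC lay in 12.4% of the other thresholded genes and 2.55% of all summits, ACCGTA in 10.9% and 3.4%, and AGTGTA in 8.76% and 3.66%. CCGTAG lay in 5.11% and 1.52%, and ACTCCG in 5.11% and 2.65%. The sequences are therefore not particular to ribosomal protein genes.

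Counted in the 500 bp upstream of each gene, with or without a region, ACCGTA was in 36 of the 78 ribosomal protein genes (46.2%), against 13.9% of all protein-coding genes. It was there in 4 of the 7 genes with a thresholded region, in 15 of the 43 with a weaker one and in 17 of the 28 with none in the pooled list. CCGTAG was in 23.1% of the ribosomal protein genes, against 6.07% of all genes. AGTGTA was in 11.5%, against 17.7% of all genes, with 4 of the 7, 4 of the 43 and 1 of the 28. CGCTCC was in 19.2%, against 8.06%, with 4 of the 7, 9 of the 43 and 2 of the 28. ACCGTA was thus also frequent at genes without a region, whereas CGCTCC and AGTGTA were more frequent at genes with a thresholded one, from whose summits they were picked.

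The E-box CACGTG lay within 50 bp of the summit in 2 of the 50 ribosomal protein genes with a pooled region (4.0%), rpl-14 and rps-29. It lay at 34 of the 137 other genes with a thresholded region (24.8%) and at 2.8% of all summits in promoter windows. Of the 7 thresholded ribosomal protein genes, 1 had it. The related CATGTG was at rpl-14 and rpl-9, 2 of 50 (4.0%), and at 10.9% of the other thresholded genes and 3.26% of all summits. GAGAGAG was at 0 of the 50, at 12.4% of the other thresholded genes and at 1.99% of all. CGTCTC was at 0 of the 7 thresholded ribosomal protein genes and at 3 of the 50, namely rpl-34, rps-5 and rpl-41.1, against 22.6% of the other thresholded genes and 4.25% of all. TGATAA was at 4 of the 50 (8.0%), 2.19% of the other thresholded genes and 9.12% of all. CTCCGCCC was at 2 of the 50, rps-28 and rpl-41.1, at 1.46% of the other thresholded genes and at 0.668% of all. All were searched on both strands, and a match or its lack is a statement about these letters in these windows only.

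The strongest region at a ribosomal protein gene was that of rpl-15 (WBGene00004427, chromosome IV, 653480 to 654576, minus strand), which encodes a protein of the large subunit. It spanned 654758 to 655097, between genes, and its summit stood 352 bp upstream. The pooled signal was 118.3 (rank 43), with 59.2 in replicate 1 (rank 49) and 60.2 in replicate 2 (rank 43). Both replicates thus placed it at almost the same rank, with summits 18 bp apart. The same summit lay 462 bp upstream of K11H12.8 on the other strand, so it falls in the promoter windows of both genes.

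The region of rpl-3 (WBGene00004414, chromosome III, 3867854 to 3869587, plus strand), whose protein lies beside the peptidyl transferase centre, spanned 3867415 to 3867754. The pooled signal was 88.7 (rank 73), with 35.5 in replicate 1 (rank 116) and 56.2 in replicate 2 (rank 50). The intergenic summit stood 269 bp upstream and was in no other gene's window. The replicate summits lay 76 bp apart.

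The region of rps-1 (WBGene00004470, chromosome III, 4475918 to 4476876, plus strand), a small subunit protein related to human RPS3A, spanned 4475507 to 4475846. The pooled signal was 71.5 (rank 114), with 28.7 in replicate 1 (rank 228) and 41.2 in replicate 2 (rank 111). The summits of both replicates lay 3 bp apart. The pooled summit lay 241 bp upstream, in an exon of an annotated non-coding RNA, and also 527 bp upstream of ifet-1, a translational repressor gene on the other strand. Along with rpl-15 and rpl-3, rps-1 was among the 259 strongest regions of each replicate, and these were the 3 ribosomal protein genes of which that was so.

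The region of rps-12 (WBGene00004481, chromosome III, 5679298 to 5680187, plus strand), of the small subunit, spanned 5678958 to 5679297. The pooled signal was 71.2 (rank 115), with 27.8 in replicate 1 (rank 281) and 40.5 in replicate 2 (rank 115). The summit was 170 bp upstream of rps-12 but only 123 bp upstream of ska-3, a kinetochore gene on the other strand, and the small nucleolar RNA gene F54E7.10 lay within 300 bp. Taking each summit for the nearest 5′ end only would give this region to ska-3.

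The other 3 thresholded regions belonged to large subunit genes, and rpl-14 and rpl-35 among them were less even between replicates. The region of rpl-14 had a pooled signal of 62.2 (rank 160), with 35.9 in replicate 1 (rank 112) and 25.2 in replicate 2 (rank 382), and an intergenic summit 304 bp upstream. That of rpl-35 (WBGene00004449, chromosome III, 7855134 to 7855646, plus strand), whose protein sits near the exit of the peptide tunnel, had a pooled signal of 50.03 (rank 252), with 21.6 in replicate 1 (rank 1171) and 28.1 in replicate 2 (rank 272), 459 bp upstream. That of rpl-12 (WBGene00004424, chromosome IV, 13239587 to 13240651, minus strand), whose protein lies at the base of the P-stalk, had a pooled signal of 49.9 (rank 256), with 24.6 in replicate 1 (rank 548) and 25.4 in replicate 2 (rank 377). Neither rpl-35 nor rpl-12 was among the 259 strongest of either replicate. The rpl-12 summit was 27 bp upstream of rpl-12 and 366 bp upstream of lin-54, on the other strand, which encodes a DNA-binding subunit of the DREAM complex. The rpl-14 and rpl-35 summits were in no other protein-coding gene's window.

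**Figure D1:**
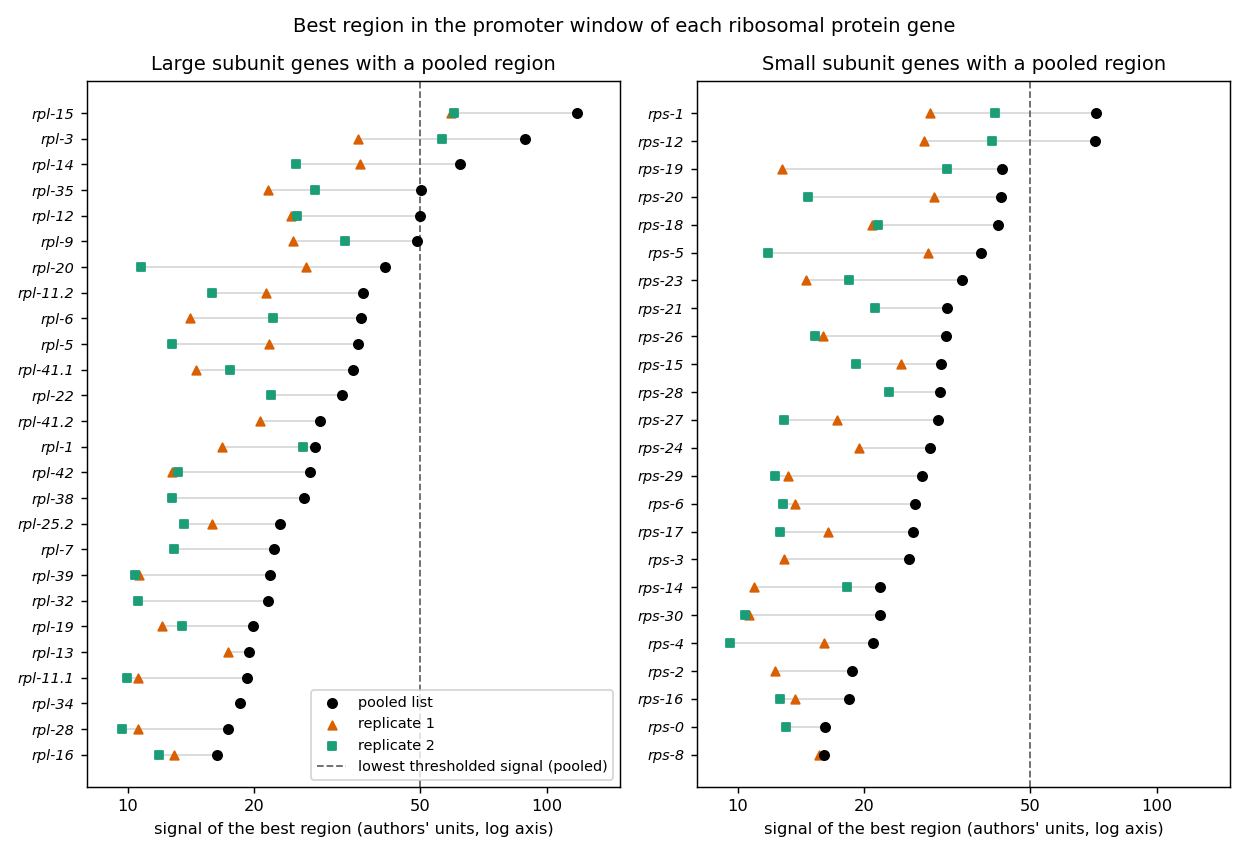
Signal of the best region in the promoter window (log axis) for the 50 ribosomal protein genes with a pooled region, large subunit on the left and small subunit on the right, in the pooled list (circles), replicate 1 (triangles) and replicate 2 (squares). The dashed line is the lowest thresholded signal, 49.8; 7 genes lie to its right, from rpl-15 at 118.3 to rpl-12 at 49.9, and rpl-9 lies just left of it at 49.1.

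Just under the threshold was rpl-9 (WBGene00004420, chromosome III, 7572105 to 7572831, minus strand), with a pooled signal of 49.1 (rank 269) and signals of 24.8 in replicate 1 (rank 511) and 33.1 in replicate 2 (rank 180). Its pooled summit lay 236 bp upstream and also 283 bp upstream of lpd-7, the worm pescadillo gene of ribosome biogenesis, on the other strand. The best replicate 1 summit was 162 bp from that of replicate 2. The next were rps-19 at 42.9 (rank 395), rps-20 at 42.4 (rank 407), rps-18 at 41.8 (rank 431) and rpl-20 at 41.2 (rank 463). Each of these summits was nearer the 5′ end of a gene on the other strand: hsr-9, ekl-4, sec-61.A and Y17G9B.5, in turn. The rps-18 summit was in a UTR exon, within the neighbouring gene's window too, that of sec-61.A, which encodes a subunit of the protein translocon.

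Further down the pooled list came rps-5 at 38.0 (rank 664), rpl-11.2 at 36.4 (rank 804), rpl-6 at 36.1 (rank 856), rpl-5 at 35.4 (rank 938), rpl-41.1 at 34.6 (rank 1057), rps-23 at 34.3 (rank 1110) and rpl-22 at 32.6 (rank 1489). The rpl-41.1, rps-23 and rpl-22 summits were nearer the 5′ ends of M04F3.5, dpm-3 and ify-1, in turn, on the other strand. RPL-5 and RPL-11 are the large subunit proteins that in other eukaryotes bind the smallest ribosomal RNA of that subunit, and RPS-23 lies at the decoding centre of the small subunit. The weakest regions were those of rps-8, rps-0 and rpl-16, at ranks 29536, 29275 and 28381 of 30000.

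Across all ranks of the pooled list, 50 of the 78 ribosomal protein genes (64.1%) had a region in the window, against 42.7% of all protein-coding genes. The median best signal was 28.7 over the 50 (lowest 16.1, highest 118.3), against 21.1 over the 8533 protein-coding genes with a region. Their median rank was 3143.5, against 13184. At rank 500 or better there were 12 of 78 (15.4%), against 1.28% of all genes, and at rank 1000 or better 16 (20.5%), against 2.28%. At rank 10000 or better there were 34 (43.6%), against 16.7%. Of these ranks, the gap to all genes was wider in proportion at 500 and 1000 than at 10000.

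**Figure D2:**
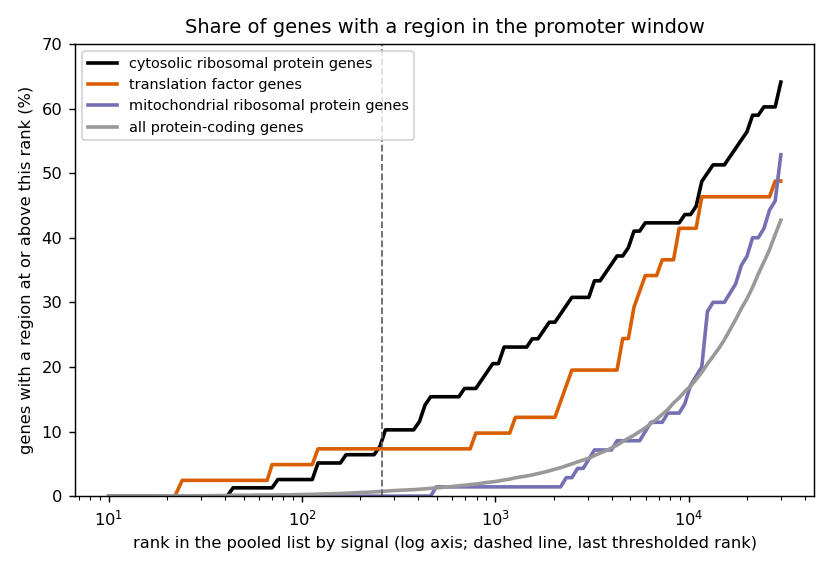
Share of the genes in a list (%) with a region at or above a given rank of the pooled list (log axis), for cytosolic ribosomal protein genes, translation factor genes, mitochondrial ribosomal protein genes and all protein-coding genes. At the dashed line, the last thresholded rank of 259, the shares are 8.97%, 7.32%, 0.0% and 0.721%, and at the last rank, 30000, they are 64.1%, 48.8%, 52.9% and 42.7%.

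Each replicate list gave shares of a similar size. In replicate 1, 6 ribosomal protein genes (7.69%) had one of its 259 strongest regions, against 0.616% of all genes, and 46 (59.0%) had any region, against 42.1%. In replicate 2, 6 (7.69%) had one of its 259 strongest, against 0.641%, and 55 (70.5%) had any, against 40.9%. The median best signal was 15.9 against 13.4 for all genes in replicate 1, and 12.9 against 11.5 in replicate 2.

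The genes behind these counts differed in part. Of the 6 in each replicate, 4 were thresholded genes. In replicate 1 the set held rpl-15, rpl-3, rps-1 and rpl-14, with rps-20 and rps-5. In replicate 2 the set of 6 held rpl-15, rpl-3 and rps-1 again, with rps-12, rpl-9 and rps-19. Over the 3 lists together, 11 genes were among the 259 strongest at least once.

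A region in both replicates was found for 38 ribosomal protein genes (48.7%), against 20.4% of all protein-coding genes. Another 8 had one in replicate 1 only, 17 in replicate 2 only, and 14 (17.9%) in none of the 3 lists. Shares of all protein-coding genes are not given beside these last counts, which are a description only. Of the 38, 24 (63.2%) had their best summits at most 200 bp apart in the replicates, against 48.4% of all genes with a region in both. At most 100 bp apart there were 21 (55.3%), against 34.4%, and at most 50 bp apart 7 (18.4%), against 22.5%. Over the 38 genes the Spearman rank correlation of the signals in the replicates was 0.570, and 0.341 without the 7 thresholded ones, against 0.165 over 4077 protein-coding genes. These correlations are a description, since the genes share the same libraries.

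**Figure D3:**
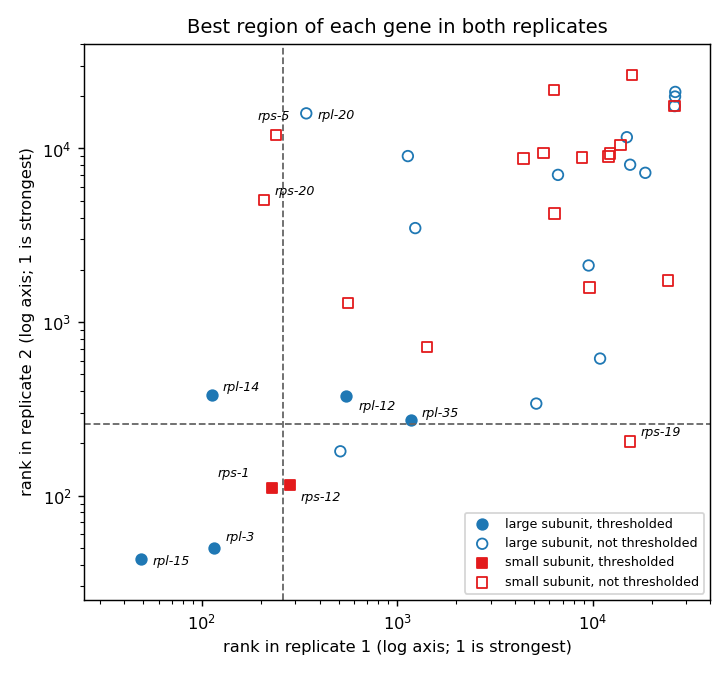
Rank of the best region of each ribosomal protein gene in replicate 1 and replicate 2 (both axes logarithmic, 1 the strongest), for the 38 genes with a region in both, by subunit and by whether the pooled region was thresholded. Dashed lines mark rank 259; rpl-15, rpl-3 and rps-1 lie inside both, while rps-19, rps-20 and rps-5 lie inside 1 of them, with ranks of 15536, 5046 and 11973 in the other replicate.

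The largest disagreements between replicates lay among genes under the threshold. Replicate 2 was the stronger at rps-19, whose signal was 12.8 in replicate 1 (rank 15536) and 31.5 in replicate 2 (rank 205). It was also the stronger at rpl-6, with 14.1 (rank 10897) in replicate 1 and 22.3 (rank 616) in replicate 2, and at rpl-1, with 16.8 (rank 5139) and 26.2 (rank 339). Replicate 1 was the stronger at rps-5, with a signal of 28.5 (rank 239) in replicate 1 and 11.8 (rank 11973) in replicate 2. The same held for rpl-20, with 26.6 (rank 342) and 10.8 (rank 15935), and for rps-20, with 29.3 (rank 208) and 14.7 (rank 5046). For rps-19, rpl-20 and rpl-1 the best summits of the replicates were 653, 593 and 355 bp apart, so different regions were being compared. For rpl-6, rps-5 and rps-20 they were 55, 67 and 71 bp apart.

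The subunits differed by which measure was used. A thresholded region was found at 5 of 47 large subunit genes (10.6%) and 2 of 31 small subunit genes (6.45%). Any pooled region was found at 26 large subunit genes (55.3%) and 24 small subunit genes (77.4%). The median best signal was 28.4 for large and 29.4 for small subunit genes. Among the 259 strongest of either replicate alone there were 3 large subunit genes (6.38%) and 3 small subunit genes (9.68%), so the order of the subunits among strong regions turned round when either replicate was left out. The higher share of small subunit genes with any region was seen in each replicate, with 48.9% of large against 74.2% of small subunit genes in replicate 1, and 66.0% against 77.4% in replicate 2.

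The summits lay mostly in one stretch upstream of the genes. Of the 50 best pooled summits, 32 (64.0%) were 100 to 500 bp upstream of the 5′ end, against 29.5% for all protein-coding genes with a region. Over 500 bp upstream there were 9 (18.0%), against 30.7%, and downstream of the 5′ end 7 (14%), against 31.9%. The median distance was 295.5 bp upstream, against 232. In replicate 1 the share at 100 to 500 bp was 56.5%, against 30.9% of all genes, and in replicate 2 it was 47.3%, against 27.3%. Of the 7 thresholded genes, 6 were in this stretch, and rpl-12, at 27 bp, was the exception.

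**Figure D4:**
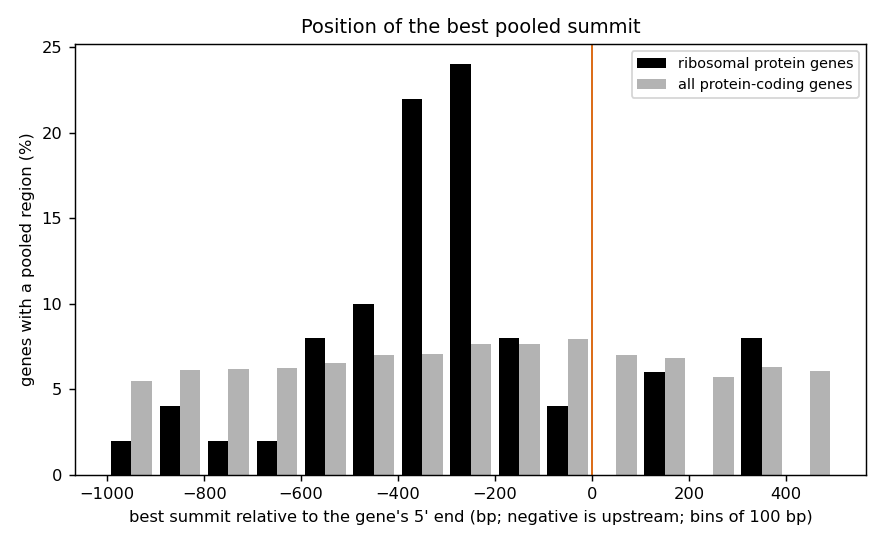
Share of genes (%) by the position of the best pooled summit relative to the 5′ end, in bins of 100 bp, for the 50 ribosomal protein genes (black) and all 8533 protein-coding genes (grey) with a region. The black bars peak at 200 to 300 bp upstream (24.0%) and 300 to 400 bp upstream (22%), where the grey bars stand at 7.65% and 7.08%.

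Of the 50 summits 32 (64.0%) were intergenic, against 47.9% of those of all genes. Another 8 were in coding exons (16%, against 23.5%), 3 in introns (6.0%, against 18.5%), 6 in exons of non-coding genes (12%, against 2.48%) and 1 in a UTR exon. A non-coding RNA gene, piRNA genes left out, lay within 300 bp of 13 of them (26%), against 7.55% of the summits of all genes. A small nucleolar RNA gene lay within 300 bp of 3 (6.0%, against 0.563%) and a transfer RNA gene within 300 bp of 0 (against 0.516%). The median GC content within 50 bp of the summit was 49.5% at the 7 thresholded ribosomal protein genes, 42.6% at the other 43, 50.5% at the other thresholded genes and 35.6% at all genes. Median GC content was thus higher at thresholded genes than at the other 43 or at all genes, and its part in the result was not tested.

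Most ribosomal protein genes share their upstream sequence with a neighbour. A protein-coding gene on the other strand started within 1000 bp upstream at 47 of 78 (60.3%), against 17.7% of all protein-coding genes. The best summit also fell in the window of another gene at 30 of 50 (60.0%), against 24.0%, and the ribosomal protein gene had the nearest 5′ end at 35 of the 50. Shares are therefore given for genes with and without such a neighbour. With a neighbour, 4 of 47 (8.51%) had a thresholded region and 29 (61.7%) any region, against 1.07% and 44.8% of all genes with a neighbour. Without one, 3 of 31 (9.68%), namely rpl-3, rpl-14 and rpl-35, had a thresholded region and 21 (67.7%) any, against 0.645% and 42.3% of all genes without one. Which gene of a divergent pair a summit belongs to cannot be told from these lists.

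In 3 divergent pairs both genes encode ribosomal proteins. The 5′ ends of rpl-39 and rps-30 lay 499 bp apart and shared 1 region, at rank 11534 with a signal of 21.8 in an intron. The 5′ ends of rps-14 and rpl-36 lay 663 bp apart. The pooled region of rps-14, at rank 11514, was 364 bp downstream of its 5′ end and outside the rpl-36 window, while replicate 1 had a region between both genes at rank 24262. The 5′ ends of rps-10 and rpl-24.1, 610 bp apart, had no region in any list.

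Some genes have related copies. Of the rpl-11 genes, rpl-11.2 had a region at rank 804, 407 bp upstream, and rpl-11.1 one at rank 18009, in a coding exon 366 bp downstream. The tandem genes rpl-41.1 and rpl-41.2, which encode the smallest ribosomal protein, had regions at ranks 1057 and 3144. Of the rpl-25 genes, rpl-25.2 had a region at rank 9224 and rpl-25.1 had none. Neither rpl-24.1 nor rpl-24.2 had one in any list. The sources used here do not say how reads matching more than 1 place were treated.

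The 28 genes without a pooled region were rpl-2, rpl-4, rpl-7A, rpl-10, rpl-17, rpl-18, rpl-21, rpl-23, rpl-24.1, rpl-24.2, rpl-25.1, rpl-26, rpl-27, rpl-29, rpl-30, rpl-31, rpl-33, rpl-36, rpl-36.A, rpl-37 and rpl-43 of the large subunit, and rps-7, rps-9, rps-10, rps-11, rps-13, rps-22 and rps-25 of the small subunit. Of these, 14 had a region in a replicate list, and 10 had a pooled region just beyond the window, 1000 to 1500 bp upstream or 500 to 1000 bp downstream. One region beyond the window, named after its values were seen, was thresholded. It lay 727 bp downstream of the 5′ end of rpl-27, with a signal of 59.6 (rank 177), in intergenic sequence, and 51 bp from the 5′ end of egl-30, a G protein alpha subunit gene. A list that ends at 30000 regions does not show that a gene without one was unoccupied.

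By chromosome, a pooled region was found at 14 of 23 ribosomal protein genes on chromosome I (60.9%, against 43.4% of all genes there) and at 4 of 10 on II (40.0%, against 41.7%). It was found at 12 of 18 on III (66.7%, against 45.3%), 12 of 17 on IV (70.6%, against 40.2%), 7 of 8 on V (87.5%, against 40.7%) and 1 of 2 on X (against 47.6%). Chromosome II was thus at the level of all genes, and X had too few ribosomal protein genes to compare. A thresholded region was found at 4 of 18 ribosomal protein genes on chromosome III, against 29 of 2640 genes there, at 2 of 17 on IV, against 17 of 3281, and at 1 of 23 on I, against 24 of 2878. On II, V and X it was found at 0 of them, against 22, 18 and 34 genes of those chromosomes.

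Longer sequences were counted in the upstream stretches as well. Of all sequences of 8 bases, 4 were in at least 20 of the 78 upstream stretches of 500 bp and in under 5% of all protein-coding genes, counting both strands, and they were picked from these same stretches. These were GGCCTAAA, in 22 (28.2%, against 1.65% of all genes), GCGAGACC, in 22 (28.2%, against 2.37%), ATTTTAGG, in 22 (28.2%, against 4.24%), and CGAGACCC, in 20 (25.6%, against 2.68%). GCGAGACC and CGAGACCC overlap, as do the reverse complement of GGCCTAAA and ATTTTAGG in part. At least 1 of the 4 sequences was upstream of 44 ribosomal protein genes (56.4%), against 8.5% of all genes. It was there in 5 of the 7 thresholded genes, 22 of the 43 with a weaker region (51.2%) and 17 of the 28 with none (60.7%).

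Other genes of the ribosome and of translation were counted in the same way. Of all protein-coding genes, 42.7% had a pooled region and 0.721% a thresholded one. Of the ubiquitin-fused, P-stalk and ribosome-bound proteins outside the naming rule, rla-1 (signal 33.4, rank 1272), ubl-1 (33.4, rank 1278) and rla-2 (19.4, rank 17526) had a pooled region, and rla-0, ubq-2 and rack-1 had none. Of 70 mitochondrial ribosomal protein genes, whose products form the separate ribosome of that organelle, 37 (52.9%) had a region, with a median signal of 21.6, and 0 had a thresholded one. Of 41 translation factor genes 20 (48.8%) had a region, with a median signal of 26.6, and 3 (7.32%) a thresholded one. These were iff-2, an initiation factor gene (165.0 pooled, 79.5 in replicate 1 and 78.7 in replicate 2), eef-1A.2, an elongation factor gene (91.2, 55.4 and 33.4), and eif-2Bgamma (71.1, 25.6 and 43.7). Their pooled summits lay 50, 446 and 965 bp upstream, in turn, so that of eif-2Bgamma was near the far edge of the window. Of 31 aminoacyl-tRNA synthetase genes 15 (48.4%), and of 40 ribosome biogenesis genes 19 (47.5%), had a region, with median signals of 20.8 and 26.3 and 0 thresholded in both lists. In lists of 31 to 70 genes, a count of 0 thresholded is not apart from the 0.721% of all genes. Any pooled region was thus found at 64.1% of the cytosolic ribosomal protein genes and at 47.5% to 52.9% of these other lists' genes. Large subunit genes alone stood at 55.3% and small subunit genes at 77.4%. In replicate 1 the other lists spanned 32.3% to 66.7% (the latter a list of 6 genes), against 48.9% of large and 74.2% of small subunit genes. In replicate 2 they spanned 42.9% to 61.0%, against 66.0% and 77.4%. No test of the difference was made.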

How the data were processed

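The 2 libraries were grouped by the labels as biological replicates 1 and 2 of one group. The authors deposited lists of regions for ce11 and ce10, whose signal column is a value per region, and whose accompanying readme texts say that a control entered the processing. The sources used here name no aligner, peak caller, version, threshold or scaling of the signal. Control libraries were not analysed here. Depth is unknown, so no interval that needs it is given. The 4 ce11 lists gave all values, and the ce10 thresholded list entered 1 alternative.

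Computed here were the best region per gene, its rank, and counts beside those over all protein-coding genes (Ensembl release 115, WBcel235, the build of the ce11 lists), with Python 3.11.15, pandas 2.3.3, numpy 2.4.6, scipy 1.17.1 and matplotlib 3.10.9. The assignment of regions was tested on simulated data. The 5′ end was the outermost annotated end of the gene. RefSeq gene starts matched 61 of the 78 genes by symbol, 56 at the same base, and the others kept their Ensembl ends. Genes named were those with a thresholded region, the next 12 by signal, the 3 highest of each subunit, those with none, the 3 with the largest and the 3 with the smallest ratio of replicate ranks, and thresholded genes of the other lists. Divergent and related pairs and the weakest regions were named after their values were seen. The genes, lists, sequences and alternatives were chosen with earlier results of these data known. Alternatives changed the window, gene start, assignment, replicates, threshold, build and members.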

Additional observations from a re-analysis of the deposited data

How the results depend on the processing

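The count of 7 ribosomal protein genes with a thresholded region stayed between 6 and 8 in 6 of the alternatives, those that changed the window, the gene start, the assignment or the replicates. With either replicate left out it was 6 to 6. Without replicate 1, rpl-12, rpl-14 and rpl-35 were lost and rpl-9 and rps-19 gained, and without replicate 2, rpl-12, rpl-35 and rps-12 were lost and rps-20 and rps-5 gained. A window of 1000 bp either side gained rpl-27, and the nearest 5′ end only lost rps-12. By construction, the count was 4 in the strongest 129 regions, 12 in the strongest 500 and 3 without genes with a divergent neighbour, where 31 genes remain. In the ce10 list of 236 regions, 4 had a region of the same signal within 0.1%. Position was not used, so a match need not be the same region. None matched for rpl-12, rpl-35 and rpl-3, and the cause was not tested. The ce11 signals of rpl-12 and rpl-35 were below the ce10 list's lowest signal of 51.9, but a common scale of both lists is not known. The count of 50 with any region was 37 with the nearest 5′ end only, 40 with the window of 500 bp up and 200 bp down, 58 with 1000 bp either side, 34 in the strongest 10000 regions, 46 to 55 with a replicate left out and 21 without a divergent neighbour. The median signal of 28.7 was 26.6 with the nearest 5′ end only and 12.9 to 15.9 with a replicate left out, on those lists' own scales. The large minus small share of 4.19 percentage points was -3.29 with either replicate left out (-3.29 to -3.29), -2.20 in the strongest 129 regions and -1.24 in the strongest 500. It kept its sign in the other alternatives. It stayed at 4.19 with the smaller window and with RefSeq starts. With 1000 bp either side it was 6.31, with the nearest 5′ end only 7.41, and without a divergent neighbour 15.8. The cause was not tested. The summits at 100 to 500 bp upstream, 32 of 50, were 15 of 21 without a divergent neighbour. They were 26 of 55 without replicate 1 and 26 of 46 without replicate 2. These alternatives were chosen after seeing the data. The 24 genes with matching replicate summits became 21 at 100 bp and 7 at 50 bp. CACGTG was at 2 of the 50 genes near the summit. From 250 bp before to 50 bp after the start, a different measure, it was at 1 of all 78, rpl-13 (1.28%), against 5.82% of all protein-coding genes. The other lists, with 3 thresholded genes, had 2 to 4 with a replicate left out, also chosen after seeing the data. No paired analysis was possible because the study has 1 group. The unknown depth limits the ranks of weak regions.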
